A study of Mus musculus with 20 samples.

Results

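The 10 Frizzled genes, Fzd1 to Fzd10, were followed through the differentiation of spherical neural masses derived from mouse D3 (ESD3) embryonic stem cells. They were taken by gene symbol from the deposited RNA-Seq tables, which all list each symbol once, among 37561 genes that every table lists. All 10 Frizzled genes passed the filter on low genes (a typical log2 normalised count of at least 4), as did 13623 genes in all. Both cell lines came from D3 cells of strain 129s2/SvPas, were kept on mouse embryo fibroblast feeder cells, received a viral vector with a short hairpin RNA (a retrovirus in the labels, a lentivirus in the methods), and were selected with puromycin. In the control line the hairpin was directed against luciferase, and in the HPRT-knockdown line against HPRT (the human gene, by the methods), the purine salvage enzyme hypoxanthine phosphoribosyltransferase. Whether a line was 1 clone is not given in the sources used here. Each line gave 1 library at each of 10 time points of differentiation toward dopaminergic neurons, 5 of them on days 0 to 4 and the other 5 in steps of 2 days up to day 14. The 20 libraries therefore held no replicate within a day. Days were used in place of replicates of the difference between the lines. The p-values therefore measure how steady a difference was over the days of 1 pair of lines. They do not measure how it would vary between separately made lines. The tests took the days as independent, which successive days of a line need not be, so the p-values can be too small. Day 6, which the study set aside as discrepant, was left out of the tests and is given beside them.

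Frizzled proteins are receptors with 7 membrane-spanning segments and a cysteine-rich domain outside the cell that binds Wnt ligands. With the co-receptors Lrp5 and Lrp6 they pass the signal through Dishevelled to beta-catenin and the TCF/LEF transcription factors, and with Ror, Ryk or the planar polarity proteins they act without beta-catenin. By sequence similarity the family divides into Fzd1, Fzd2 and Fzd7, then Fzd5 and Fzd8, then Fzd4, Fzd9 and Fzd10, and Fzd3 and Fzd6. Wnt signaling through these receptors patterns the neural tube and takes part in the formation of midbrain dopaminergic neurons.

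In the NCBI37/mm9 build, Fzd1 lies at chr5:4753842-4758216 on the minus strand, Fzd2 at chr11:102465745-102469372 on the plus strand and Fzd3 at chr14:65819863-65881300 on the minus strand. Fzd4 lies at chr7:96552876-96558620, plus, Fzd5 at chr1:64777134-64784324, minus, and Fzd6 at chr15:38837879-38869732, plus. Fzd7 lies at chr1:59538991-59543791, plus. Fzd9 lies at chr5:135724808-135727100, minus, and Fzd10 at chr5:129106719-129109968, plus. Fzd1, Fzd2, Fzd7, Fzd8, Fzd9 and Fzd10 are genes of 1 exon, whereas the longest transcripts of Fzd3 and Fzd6 have 7 exons each. The exons summed to between 2293 bases in Fzd9 and 6912 bases in Fzd5. No exon of a Frizzled gene overlapped an annotated exon of another gene on either strand. No stretch of 50 bases was shared between 2 Frizzled genes, and only in Fzd2 did any exonic stretch of that length, 1.87% of them, occur elsewhere in the genome.

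The bases just before the start of the gene are shown for Fzd7 and Fzd10, which were lower in the HPRT-knockdown line, and for Fzd5, whose difference between the lines had the clearest slope over time. They are RefSeq sequences of build GRCm38.p6, 250 bases each, read 5′ to 3′ on the strand of the gene, and their coordinates are not interchangeable with those above. Capitals mark matches to the TCF/LEF core motifs (CTTTG followed by AA, AT, TA or TT) on either strand, and no matches overlapped one another. The stretches are chr1:59481897-59482146 (plus) for Fzd7, chr5:128600856-128601105 (plus) for Fzd10 and chr1:64737751-64738000 (minus) for Fzd5.
Fzd7: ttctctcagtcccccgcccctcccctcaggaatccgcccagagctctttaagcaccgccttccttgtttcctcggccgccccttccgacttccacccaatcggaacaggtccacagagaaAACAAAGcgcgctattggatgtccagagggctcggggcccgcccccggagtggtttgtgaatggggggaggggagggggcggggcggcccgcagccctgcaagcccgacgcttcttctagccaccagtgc
Fzd10: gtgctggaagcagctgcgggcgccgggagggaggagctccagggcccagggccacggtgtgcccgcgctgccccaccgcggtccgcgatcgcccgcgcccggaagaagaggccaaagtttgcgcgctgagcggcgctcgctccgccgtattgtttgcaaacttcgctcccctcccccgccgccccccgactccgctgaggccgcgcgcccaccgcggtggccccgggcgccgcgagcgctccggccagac
Fzd5: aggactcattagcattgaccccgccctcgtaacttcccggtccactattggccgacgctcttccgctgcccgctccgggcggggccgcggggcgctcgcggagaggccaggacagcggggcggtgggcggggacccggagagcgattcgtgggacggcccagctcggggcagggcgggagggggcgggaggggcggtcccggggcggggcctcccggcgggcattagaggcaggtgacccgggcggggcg
Fzd7 held 1 match, which began 130 bases before the start of the gene, and Fzd5 and Fzd10 held none. Of 32851 promoters of that length in the RefSeq table, 14.8% held a match. The table had a stretch for 6 Frizzled genes, and Fzd1, Fzd4 and Fzd9 held no match in it either. The Fzd10 and Fzd5 stretches held 37 and 32 CG pairs and that of Fzd7 held 17, against a median of 6 over all promoters.

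Hprt, the gene targeted by the hairpin, was lower in the HPRT-knockdown library on all 10 days. Its log2 ratio, HPRT-knockdown minus control, ran from -2.53 on day 0 to -5.004 on day 14 and was -3.42 on day 6. Over the 9 tested days it averaged -4.002 ± 0.89 (SD), which is 16.02-fold lower. The targeted gene thus matched the line labels on every day.

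The reads of many genes could be recovered from 27 of the 28 tables, since the deposited values were exact enough to fix them by comparing the tables. Over the 8556 genes recovered, the libraries held 4.22e+06 to 8.28e+06 reads. This is a part of each library, whose full depth is unknown. Reads were recovered for 8 Frizzled genes. Their levels are given as scaled reads per kilobase, the reads divided by the size factor of the library and by the summed length of the exons. Size factors were set over all 20 libraries, whereas each log2 ratio keeps the normalisation of its own pair of libraries, so the 2 scales can differ slightly. A library held between 73.3 reads (Fzd9, control, day 8) and 9549 reads (Fzd7, control, day 3) of a Frizzled gene, where recovered counts could be fractions of a read. For Fzd4 and Fzd8 the tables disagreed with each other around a loop of 4 tables, by 0.107 and -0.0906 on the log2 scale at most, so only their log2 ratios are given. Markers of other cells were read from the same limma fit, which called 26.2% of all genes higher and 26.3% lower. All 10 pluripotent markers and 7 of 9 neuron markers were lower in the HPRT-knockdown line, while 6 of 7 astrocyte markers and 5 of 10 oligodendrocyte markers were higher. Over the 9 days and summed over the markers with recovered reads, the oligodendrocyte list ranged from 2184 to 6603 scaled reads in the control and from 5679 to 34283 in the HPRT-knockdown libraries, and the neuron list from 7224 to 23293 and from 2779 to 10473. For pluripotent markers the ranges were 2203 to 7463 and 262 to 2715, and for astrocyte markers 1553 to 4691 and 2643 to 9328. Of 8 neural progenitor markers 1 was higher and 2 lower, of 8 dopaminergic neuron markers 3 higher and none lower, of 9 fibroblast markers (the feeder cells) none higher and 3 lower, and of 6 endothelial markers 1 higher and 2 lower. Of the markers matched on these lists, every one had reads in at least 1 table, but Rbfox3, a marker of mature neurons, Slc6a3 and Pitx3, which define mature dopaminergic neurons, and the endothelial markers Tie1 and Esam did not pass the filter. In these bulk libraries fewer cells of a type and less RNA per cell cannot be told apart, and the part of these cell types in the Frizzled differences was not tested.

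A total of 6 Frizzled genes differed between the lines over the 9 days by limma's moderated test at a Benjamini-Hochberg adjusted p under 0.05. Of these, 4 were higher in the HPRT-knockdown line, namely Fzd4, Fzd5, Fzd9 and Fzd1, and 2 were lower, Fzd7 and Fzd10. Of all genes tested, 26.2% were called higher and 26.3% lower, so the share of 6 in 10 lay close to the 52.5% called in either direction among all genes. The median mean ratio was 0.10 over the 10 Frizzled genes and 0.01 over all genes tested. Fzd2, Fzd3, Fzd6 and Fzd8 were not called, with mean ratios between -0.20 and 0.12. Day 6 lay outside the range of the other 9 days for 3 of 10 Frizzled genes, Fzd3 (-0.62), Fzd7 (0.23) and Fzd9 (-0.61), and for 43.7% of all genes tested. The family was thus not shifted in 1 direction, and its members are described below by subfamily.

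**Figure D1:**
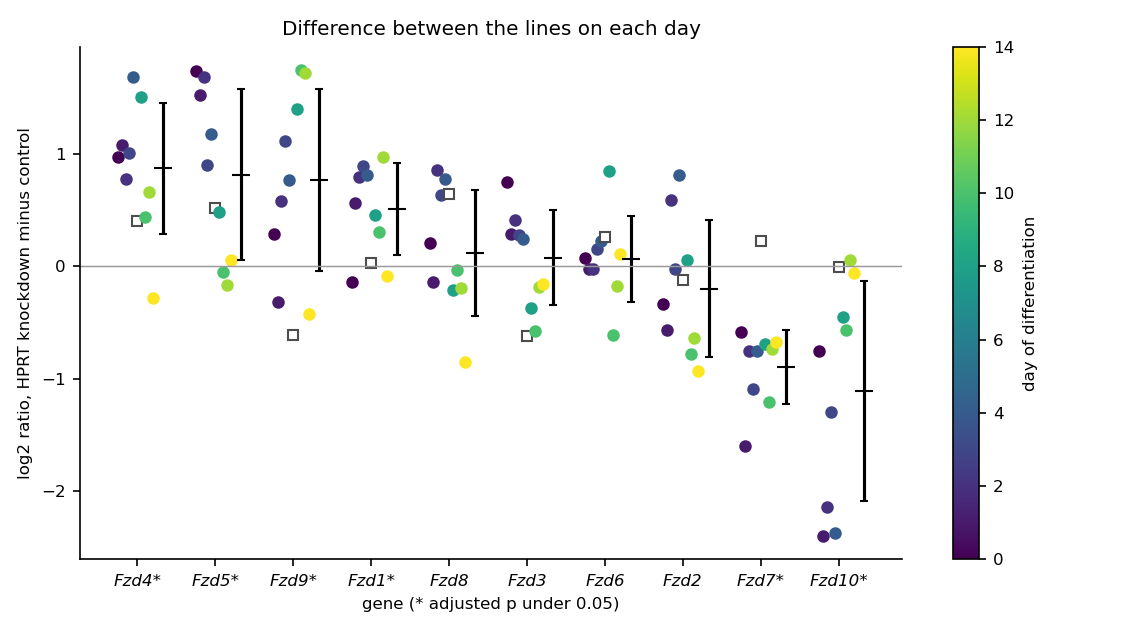
Log2 ratio of HPRT-knockdown to control (vertical axis) for each Frizzled gene (horizontal axis, ordered by mean ratio), with 1 filled point per day coloured by day and an open square for day 6, and an asterisk for an adjusted p under 0.05; bars at the right of each gene give mean ± SD over the 9 days without day 6. Fzd7 lies below 0 on all 9 days, and the early days of Fzd5 and Fzd10 lie far from their late days.

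Fzd7, the receptor of the first subfamily with the highest level in the control line, was the most steadily lower member. Per kilobase of exon, its level in the control libraries had a lowest value of 1044, a median of 1181 and a highest of 1672 scaled reads. In the HPRT-knockdown libraries the lowest, median and highest were 363, 620 and 979. The groups did not overlap over the 9 days, which was so for Fzd7 alone among the 8 members with reads and for 4.25% of the genes with recovered reads. The log2 ratio ran from -1.59 on day 1 to -0.58 on day 0 and was below 0 on all 9 days, as it was for 15.2% of genes tested. No Frizzled gene was above 0 on all 9 days, against 14.1% of genes. The mean was -0.90 ± 0.33 (SD, n = 9 days; SE 0.11), or 1.86-fold lower, with an adjusted p of 0.000201 by limma. An exact two-sided sign-flip test over the days gave 0.00391, the smallest value that 9 days allow. Day 6 went the other way, at 833 scaled reads per kilobase in the control and 996 in the HPRT-knockdown library and a log2 ratio of 0.23.

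Fzd1, a close relative of Fzd7 that also signals to beta-catenin, was higher in the HPRT-knockdown line on 7 of 9 days. Its control libraries held 185, 275 and 403 scaled reads per kilobase at the lowest, median and highest, and its HPRT-knockdown libraries 264, 358 and 541. The ranges overlapped. The log2 ratio was -0.14 on day 0 and -0.08 on day 14 and lay between 0.31 and 0.97 on the other 7 days tested. The mean ratio was 0.51 ± 0.41 (SD, n = 9 days; SE 0.13), 1.42-fold, with an adjusted p of 0.00888 by limma. On day 6 the ratio was 0.03.

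Fzd2, the other member of this subfamily and the receptor classically tied to Wnt5a signaling, was not called. Its log2 ratio was between -0.57 and 0.81 on days 0 to 4, was 0.06 on day 8 and was -0.78, -0.64 and -0.93 on days 10, 12 and 14. On day 14 the level was 309 scaled reads per kilobase in the control and 153 in the HPRT-knockdown library. The mean over 9 days was -0.20 ± 0.61 (adjusted p = 0.392, limma), with a 95% interval from -0.62 to 0.22, and the slope of the ratio on day, -0.06 per day, was not called (adjusted p = 0.234).

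Fzd5, a receptor needed for eye and vascular development that signals to beta-catenin, was much higher in the HPRT-knockdown line early in differentiation. The control libraries ranged from 22.8 to 53.9 scaled reads per kilobase with a median of 41.7, and the HPRT-knockdown libraries from 38.4 to 143 with a median of 74.2. On days 0, 1 and 2 the level was 22.8, 39.3 and 46.3 in the control and 80.2, 117 and 143 in the HPRT-knockdown line. The log2 ratios of those days were 1.74, 1.53 and 1.69. On days 10, 12 and 14 the levels were 45.2, 44.7 and 39.8 in the control and 41.1, 38.4 and 39.0 in the HPRT-knockdown line, with ratios of -0.05, -0.16 and 0.06. The difference between the lines was thus found on the early days and was no longer seen from day 10. Over days 0 to 4 the mean ratio was 1.41 ± 0.36 (SD, n = 5 days) and over days 8 to 14 it was 0.08 ± 0.28 (n = 4 days). The mean over all 9 days was 0.82 ± 0.76 (SE 0.23; adjusted p = 0.0142, limma).

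The slope of the Fzd5 ratio on day was -0.14 ± 0.02 (SE) per day with an adjusted p of 0.00504 by limma. Of all genes, 6.61% had a falling and 7.44% a rising ratio by this test. The slope was called falling for 2 Frizzled genes, Fzd5 and Fzd3, and rising for none. Within the HPRT-knockdown line Fzd5 fell by 0.12 per day (SE 0.02, adjusted p = 0.0218), whereas in the control line its slope of 0.02 was not called (adjusted p = 0.371). Without day 12 or without day 14 the trend in the HPRT-knockdown line lost its call (adjusted p = 0.0723 and 0.0914), as it did on a scale of log2(day + 1) (adjusted p = 0.139).

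Fzd8, the closest relative of Fzd5, had ratios of 0.86, 0.64 and 0.78 on days 2, 3 and 4 and of -0.85 on day 14. The mean was 0.12 ± 0.56 with a 95% interval from -0.27 to 0.50 (adjusted p = 0.587, limma). Its slope of -0.08 per day had the sign of that of Fzd5 but was not called (adjusted p = 0.0927).

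Fzd10 had the largest mean difference of the family. Its log2 ratio had a mean of -1.11 ± 0.98 (SD, n = 9 days; SE 0.30; adjusted p = 0.0108, limma), 2.15-fold lower in the HPRT-knockdown line, and was below 0 on 8 of 9 days. The control libraries ranged from 31.6 to 275 scaled reads per kilobase with a median of 126, and the HPRT-knockdown libraries from 26.8 to 78.4 with a median of 40.1. On days 1, 2, 3 and 4 the control line stood at 167, 184, 164 and 275 and the HPRT-knockdown line at 32.7, 40.1, 63.8 and 52.2. On days 8, 10, 12 and 14 the control line stood at 68.6, 42.0, 32.5 and 31.6 and the HPRT-knockdown line at 49.6, 26.8, 32.6 and 28.6. On day 0 the control line stood at 126 and the HPRT-knockdown line at 78.4. The control line was therefore above the HPRT-knockdown line on days 0 to 4 and close to it on days 12 and 14. Of the 9 days, the HPRT-knockdown line was highest on day 0, and it was already lower on days 1 to 4 as well as on days 8 to 14. The mean ratio was -1.79 ± 0.73 over days 0 to 4 (n = 5) and -0.25 ± 0.30 over days 8 to 14 (n = 4). On day 6 the lines were alike, at 147 and 149.6 and a ratio of -0.0049.

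Within the control line the Fzd10 trend was falling by 0.21 per day (SE 0.04; adjusted p = 0.00213, limma), a class that held 23.9% of all genes, while 19.7% were rising. Within the HPRT-knockdown line the slope of -0.07 was not called (adjusted p = 0.108), in a line where 5.51% of genes were falling and 7.61% rising. The slope of the ratio itself, 0.14 ± 0.04 (SE) per day, gave an adjusted p of 0.0531. With days 8 to 14 set against days 0 to 4 in place of a slope, the ratio differed by 1.54 with an adjusted p of 0.0444. The difference in trend between the lines was therefore at the edge of the threshold for Fzd10.

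**Figure D2:**
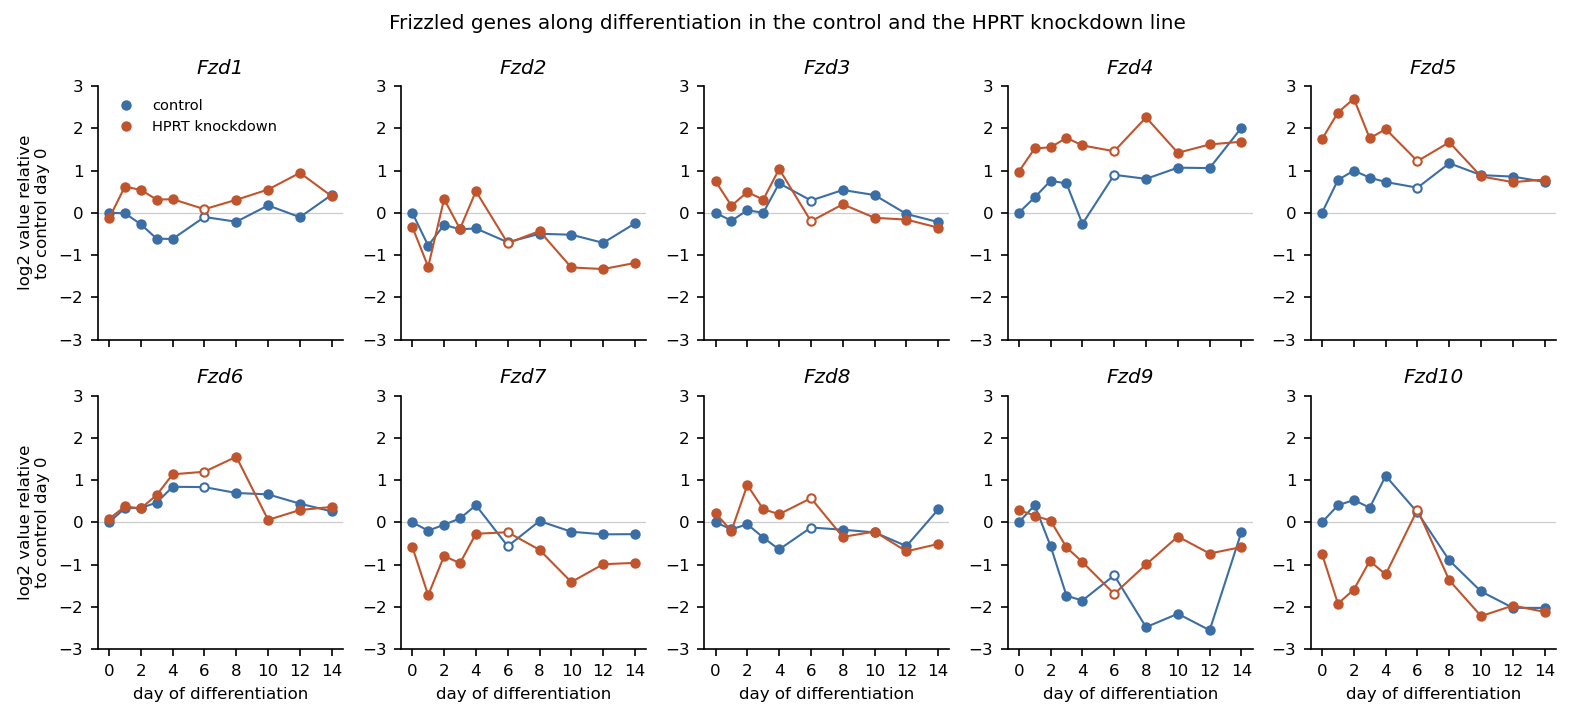
Log2 value relative to the control library of day 0 (vertical axis) against day of differentiation (horizontal axis) for the 10 Frizzled genes in control (blue) and HPRT-knockdown (orange) libraries, 1 point per library, with open points for day 6. The lines start 1.74 apart in Fzd5 and meet late. In Fzd10 the control line lies above the HPRT-knockdown line on days 0 to 4 and close to it on days 6, 12 and 14. Both Fzd10 lines are lower on days 8 to 14 than on day 6. No error bars are drawn because each point is 1 library.

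Fzd4, which binds norrin as well as Wnt proteins and acts in vessels of the retina and brain, was higher in the HPRT-knockdown line on 8 of 9 days. Its log2 ratios on days 0, 1, 2, 3 and 4 were 0.97, 1.08, 0.78, 1.01 and 1.68. On days 8, 10, 12 and 14 they were 1.51, 0.44, 0.66 and -0.28. Only the last day lay below 0. The mean was 0.87 ± 0.58 (SD, n = 9 days; SE 0.18; adjusted p = 0.00281, limma), or 1.83-fold. In the control line Fzd4 rose by 0.10 per day (SE 0.03; adjusted p = 0.0125), 1 of 2 Frizzled trends called there together with Fzd10. Without day 14 that trend was not called (adjusted p = 0.0816, slope 0.07). Gpr124, which acts with Reck in Wnt7 signaling of brain vessels, was higher by 0.83 ± 0.77 (adjusted p = 0.0142, 8 of 9 days) and Tspan12, a membrane partner of Fzd4 in norrin signaling, by 1.19 ± 0.44 (adjusted p = 0.000164). Of the same list, Reck itself (0.34 ± 0.53, adjusted p = 0.108) and Ndp, which encodes norrin (0.54 ± 0.69, adjusted p = 0.0516), named after their values were seen, were not called.

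Fzd9, a receptor expressed in neural progenitors, was higher in the HPRT-knockdown line on 7 of 9 days. The control libraries ranged from 34.2 to 236 scaled reads per kilobase with a median of 54.6, and the HPRT-knockdown libraries from 90.2 to 228 with a median of 117. On days 8, 10 and 12 the control line stood at 34.8, 44.2 and 34.2 and the HPRT-knockdown line at 90.8, 139 and 108. On day 14 the order turned, with 167 in the control and 117 in the HPRT-knockdown library. The ratio ran from -0.42 on day 14 to 1.75 on day 10, and the mean was 0.77 ± 0.81 (SE 0.25; adjusted p = 0.0246, limma). In the control line the slope of Fzd9 on day was -0.10 and not called (adjusted p = 0.243), whereas without day 14 it was -0.22 and called (adjusted p = 0.0108). The call between the lines was the least secure of the 6. That call was lost when day 6 with its ratio of -0.61 was kept (adjusted p = 0.0636), with the exact sign-flip test adjusted over all genes (0.0600), and without day 3, 8, 10 or 12 (0.0553 to 0.0577). It was also lost when pairing by day was dropped (adjusted p = 0.0935, limma, no block). That fit took values joined over consecutive-day tables in place of same-day ratios, so the part of the pairing alone is not known.

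Fzd3, which acts in axon guidance through the planar polarity pathway, was among the highest members in both lines and was not called for its mean (0.08 ± 0.42, 95% interval -0.22 to 0.38; adjusted p = 0.654, limma). Its ratio was above 0 on each of days 0 to 4, between 0.24 and 0.75, and below 0 on each of days 8 to 14, between -0.58 and -0.15. The control libraries ranged from 506 to 990 scaled reads per kilobase with a median of 607, and the HPRT-knockdown libraries from 446 to 1150 with a median of 675. On day 0 the levels were 574 in the control and 1012 in the HPRT-knockdown line, and on day 14 they were 526 and 446. The slope of the ratio was -0.07 ± 0.02 (SE) per day (adjusted p = 0.0382). The call was lost when day 6 was kept (0.0970) and without day 0, 1, 2, 3, 4, 10 or 12 (0.0581 to 0.0890). Fzd6, its nearest relative, had a mean ratio of 0.06 ± 0.39 (95% interval -0.21 to 0.34; adjusted p = 0.682), with its highest ratio of 0.85 on day 8 and its lowest of -0.61 on day 10.

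Levels of different receptors were compared per kilobase of exon for the 8 members with reads, after scaling each library by its size factor. In the control line the geometric means over 9 days were 1205 for Fzd7, 663 for Fzd3, 272 for Fzd2, 266 for Fzd1, 93.2 for Fzd10, 80.3 for Fzd9, 59.6 for Fzd6 and 40.7 for Fzd5. Neighbours in this order differed by an exact sign-flip test over the days (Benjamini-Hochberg adjusted over 14 neighbour pairs of both lines) for Fzd7 over Fzd3 (log2 difference 0.86 ± 0.26, adjusted p = 0.0137), Fzd3 over Fzd2 (1.29 ± 0.41, adjusted p = 0.0137), Fzd1 over Fzd10 (1.51 ± 1.49, adjusted p = 0.0365) and Fzd6 over Fzd5 (0.55 ± 0.24, adjusted p = 0.0137). Fzd2 and Fzd1, Fzd10 and Fzd9, and Fzd9 and Fzd6 did not differ beyond their spread over the days. The spread was widest for Fzd10 and Fzd9, with SDs of 1.18 and 1.09 on the log2 scale.

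In the HPRT-knockdown line the order was Fzd3 (684), Fzd7 (633), Fzd1 (370), Fzd2 (231), Fzd9 (133), Fzd5 (70.1), Fzd6 (61.0) and Fzd10 (42.6). Fzd7 thus stood beside Fzd3, from which it did not differ beyond the spread (0.11 ± 0.38, adjusted p = 0.551, exact sign-flip test). Fzd10 had the lowest mean of the 8 members with reads. It did not differ from Fzd6 beyond the spread (0.52 ± 0.60, adjusted p = 0.0820, same test). Nor did Fzd1 and Fzd2, Fzd2 and Fzd9, or Fzd5 and Fzd6 differ beyond theirs. The neighbours that differed were Fzd7 over Fzd1 (0.78 ± 0.64, adjusted p = 0.0365) and Fzd9 over Fzd5 (0.93 ± 0.66, adjusted p = 0.0137). With the pairs of each line counted separately, 6 of 14 neighbour pairs differed. For Fzd4 and Fzd8, only the precision of the deposited values bears on the level. For Fzd4, 14 tables pointed to a log2 normalised count between 4 and 8 and 14 to 8 or more, and for Fzd8 21 of 28 tables pointed to 8 or more.

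**Figure D3:**
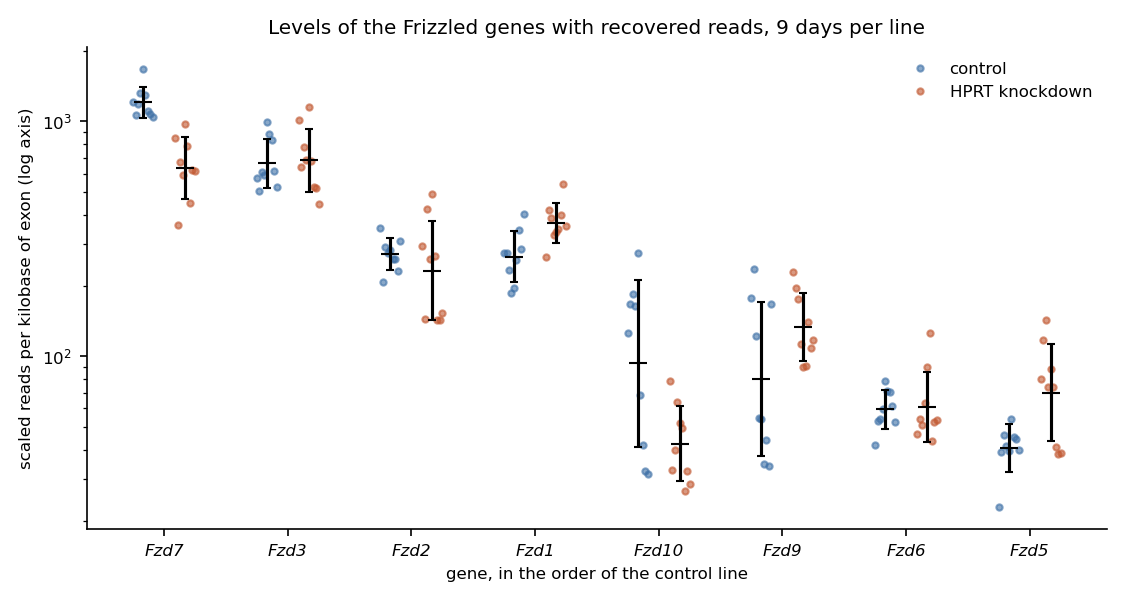
Scaled reads per kilobase of exon (vertical log axis) for the 8 Frizzled genes with recovered reads (horizontal axis, in the order of the control line), 1 point for each of 9 libraries per line in control (blue) and HPRT-knockdown (orange); bars give the mean ± SD on the log scale. The points of Fzd7 do not overlap between the lines, and Fzd10 spans 31.6 to 275 in the control line.

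Members differed in how they moved over all 20 libraries, day 6 included. The pairs with the highest Pearson correlation of log2 values, given as a description over 20 libraries that share lines and days, were Fzd1 with Fzd4 (r = 0.73) and Fzd7 with Fzd10 (r = 0.67). The lowest were Fzd1 with Fzd7 (r = -0.79) and Fzd1 with Fzd10 (r = -0.77). Among all genes that passed the filter, those most like Fzd7 were Rbpms (r = 0.96), Bex1 (0.95) and Ing5 (0.95). For Fzd10 they were Top3a (0.94), Gm4737 (0.93) and 3110082I17Rik (0.93), for Fzd1 Sri (0.93), Ptpn9 (0.92) and Fam82b (0.91), and for Fzd2 Mdk (0.94), Ephb4 (0.91) and Pbx2 (0.89). For Fzd4 they were Gpr124 (0.93), Tbc1d2b (0.92) and Spon2 (0.91), so that the gene most like Fzd4 was on the list of other Frizzled ligands and their partners. For Fzd9 they were Col9a3 (0.91), Thrsp (0.88) and Ppp1r3c (0.87), and for Fzd5 Krt10 (0.87), Irs4 (0.86) and Fhl4 (0.86). The most like genes had lower correlations for Fzd3, with Syne2 (0.86), Foxb1 (0.83) and Msi1 (0.82), for Fzd8, with Ephb3 (0.81), Chsy1 (0.81) and Pigw (0.73), and for Fzd6, with Gcnt2 (0.74), Pdgfb (0.73) and Uaca (0.73).

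The partners of the Frizzled receptors were read from 8 lists of 107 Wnt pathway genes, of which 87 passed the filter. The same fit called 26 of them higher and 22 lower, 55.2% in all, beside 52.5% of all genes. Of 10 Wnt ligands that passed, 5 were higher and 2 lower. Wnt5a, which acts mainly without beta-catenin, was higher by 1.04 ± 0.38 (SD, n = 9 days; adjusted p = 0.000178), and Wnt3, a ligand for beta-catenin signaling, was lower with a ratio of -1.34 ± 0.77 (adjusted p = 0.00121). Among co-receptors, none of 5 was higher and Ror1 (-0.87 ± 0.58) and Ror2 (-0.75 ± 0.47), receptors for Wnt5a, were lower. Of 6 genes for ligand maturation and other Frizzled ligands, 3 were higher and none lower.

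Genes that control how long Frizzled proteins stay at the cell surface were split, with 3 of 7 higher and 3 lower. Lgr4, a receptor for R-spondins, had a ratio of -0.68 ± 0.40 and Rspo3, one of these ligands, of -0.68 ± 0.62, both called lower. Rspo1 (-1.35 ± 1.46) was the other lower gene. The higher ones were Lgr6 (1.20 ± 1.02), Lgr5 (0.60 ± 0.36) and Znrf3 (0.42 ± 0.26), each above 0 on 8 of 9 days. Secreted inhibitors were also split, with 5 of 13 higher and 3 lower. Sfrp2, which binds Wnt proteins outside the cell, was lower with a ratio of -2.87 ± 0.88 (adjusted p = 5.67e-05), and Notum, which inactivates Wnt proteins and is itself a target of the pathway, with -2.15 ± 0.57. Wif1 (1.55 ± 1.07) and Dkk3 (1.41 ± 0.49) were higher.

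Inside the cell, 5 of 26 transducers were higher and 8 lower. The TCF/LEF factors Lef1 (-1.45 ± 1.13) and Tcf7 (-1.45 ± 0.53) were lower, while Tcf7l2 (0.83 ± 0.46) and the co-repressor Tle2 (1.44 ± 0.71) were higher. Of 14 target genes, 5 were higher and 3 lower. T, the mesoderm factor Brachyury, was higher by 3.48 ± 1.13 (adjusted p = 7.29e-05), and the lower ones were Notum, Lef1 and Tcf7. Myc, Apcdd1, Lgr5 and Znrf3 were also higher, and Axin2 was not called (0.04 ± 0.31, adjusted p = 0.784, limma). Of 13 planar polarity partners, 3 were higher, with Fuz at 0.70 ± 0.30, and 4 lower, with Scrib at -0.64 ± 0.24. Each list thus held genes that moved in both directions or, for the short lists of co-receptors and ligand maturation, in 1 direction.

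**Figure D4:**
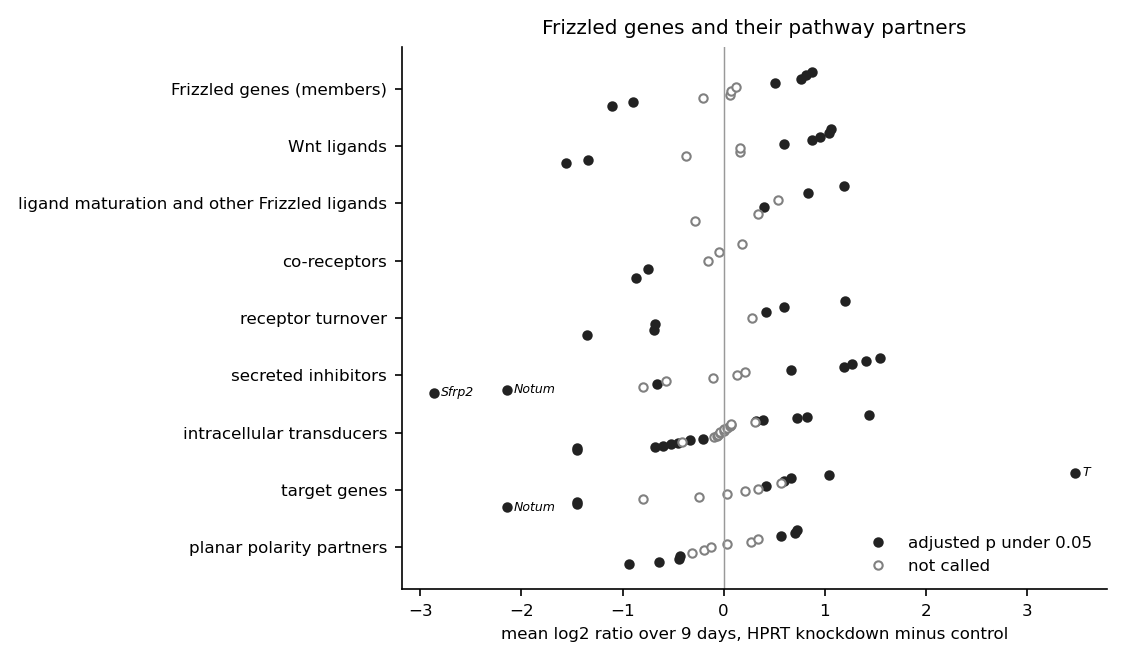
Mean log2 ratio over 9 days, HPRT-knockdown minus control (horizontal axis), for every gene that passed the filter on the Frizzled list and 8 Wnt pathway lists (vertical axis); filled points have an adjusted p under 0.05 and open points do not, and genes beyond 2 are named. Called genes lie on both sides of 0 in the Frizzled list, as in most of the others.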

How the data were processed

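RNA was measured by RNA-Seq in 20 libraries of control and HPRT-knockdown cells, with RNA pooled per time point according to the methods. TruSeq libraries, which do not mark the strand, were sequenced on a HiSeq 2000, and the authors aligned the reads to NCBI37/mm9 with CASAVA 1.8.2 (ELAND) and normalised them in Avadis NGS with the DESeq method. The 28 deposited tables, 10 of the same day and 9 of consecutive days for each line, hold log2 normalised counts of a pair of libraries from which the authors subtracted the mean of the pair. The difference of the columns is therefore a log2 ratio, normalised within that pair. No column of per-sample values was left unmapped (0 columns).

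Ratios of 9 days were tested with limma 3.58.1 in R 4.3.3 (intercept, or slope on day) over all genes whose typical log2 count reached 4, and p-values were adjusted by Benjamini-Hochberg, with calls under 0.05. The typical count was read from the rounding step of the values. Trends within a line joined consecutive-day tables that were normalised separately. The libraries were paired by the differentiation day in the labels. Deviations of same-day libraries from the means of the lines correlated at 0.13 to 0.41 on 8 days and at -0.03 on day 0. Only on days 4, 8 and 14 was the same-day library the best match in both directions. The HPRT-knockdown libraries of days 0 and 10 were most like the control libraries of days 12 and 0. Single values were tested with an exact sign-flip permutation test over days.

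Reads were recovered from the ratios of 27 tables, with the counts taken to be multiples of 1/49 read. The control table of days 3 and 4 was not used for this because its values differ from those of all other tables, with 0.182% of genes closing the loop through it within 1e-05, against 86.8% to 89.8% for the other loops. It was used in the control trend. The recovered reads gave back 99.6% of the deposited values of the genes recovered within 2e-06. Only genes whose values were fitted well were kept, so this share is not an independent check of the reads. Because library totals were not recovered, levels were scaled by size factors in place of the planned totals. Tests of levels used a pseudocount of 1 read. Scripts were tested on simulated data. Full depth is unknown, and reads are not independent molecules.

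The Frizzled genes and the gene lists were chosen with earlier results of these data known. All Frizzled genes and Hprt are named. From each Wnt pathway list, the 2 highest and 2 lowest of the called genes with 1 sign on all 9 days are named, and for each Frizzled gene the 3 genes with the highest Pearson correlation over 20 libraries. Other genes of the Wnt pathway lists were named after their values were seen. Lrp6 and Map2 had no single matching row and were not used. Alternatives covered the filter, day 6, each day left out, centring, the pairing, the test, the time scale, recovered reads, exon length and pseudocount.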

Additional observations from a re-analysis of the deposited data

Results flagged for a closer look

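The time course differed between the lines for Fzd5 and Fzd3, by limma's test of the slope of the ratio on day. For Fzd5 the slope in the HPRT-knockdown line minus that in the control line was -0.141 log2 per day (SE 0.018, adjusted p = 0.00504), which adds up to -1.98 over 14 days. For Fzd3 it was -0.0681 log2 per day (SE 0.018, adjusted p = 0.0382), or -0.95 over 14 days. The Fzd3 call was lost when day 6 was kept (adjusted p = 0.0970, limma) and without day 0, 1, 2, 3, 4, 10 or 12 (0.0581 to 0.0890). In both genes the ratio was above 0 on all 5 days from 0 to 4. From day 8 on, it was below 0 on all 4 days in Fzd3 and -0.05, -0.16 and 0.06 on days 10, 12 and 14 in Fzd5. The oligodendrocyte and neuron markers also differed between the days (their summed scaled reads went from 6282 on day 0 to 30973 on day 14 and from 10473 to 4484 in the HPRT-knockdown line), and their part in these slopes was not tested.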

How the results depend on the processing

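The count of 6 Frizzled genes called between the lines stayed between 4 and 6 under all 16 alternatives, and was 4 at a typical log2 count of at least 8, a set that does not hold Fzd4 and Fzd10. Fzd1, Fzd2, Fzd4, Fzd5, Fzd7, Fzd8 and Fzd10 kept their direction and their side of the threshold under every alternative in which they were tested. The call of Fzd9 (0.77) was lost with day 6 kept (0.63, adjusted p = 0.0636), with the exact sign-flip test (0.77, adjusted p = 0.0600) and with no replicate block (0.83, adjusted p = 0.0935). The fit without the block dropped the pairing by day and also used values joined over consecutive-day tables in place of same-day ratios. The mean of Fzd9 ran from 0.64 to 0.91 with each day left out. No other Frizzled call changed without the block. The uncalled means of Fzd3 and Fzd6 turned to -0.0071 without day 0 and to -0.033 without day 8, within leave-one-out ranges of -0.0071 to 0.16 and -0.033 to 0.15. The Wnt pathway count fell from 48 to 24 on recovered reads, where fewer genes could be tested, and was 41 to 50 with each day left out. Slopes of the ratio were called for 1 gene in place of 2 with day 6 kept, and for 1 to 3 with each day left out. Control trends were called for 1 in place of 2 on recovered reads (Fzd4 has none), for 1 on log2(day + 1) and for 0 at the stricter filter (which holds neither gene), and for 2 with each day left out, but without day 14 these were Fzd9 (adjusted p = 0.0108) and Fzd10 in place of Fzd4 (0.0816) and Fzd10. HPRT-knockdown trends were called for 2 in place of 1 with days 3 and 4 joined through the other line, for 0 on log2(day + 1), for 2 at the stricter filter, and for 0 to 4 with each day left out (0 without day 12 or 14, 4 without day 1). Where no value shows it, the cause was not tested. The order of levels was the same with transcript length or a pseudocount of 5 reads, but neither could shift it much. Among the genes ranked, only Fzd3 had a longest transcript (4157 bases) that differed from its summed exons (4227 bases). Every library held at least 73.3 reads of each of these genes. With 1 library per line and day, no spread within a day is known.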

Other observations

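As shares of the summed level per kilobase of the 8 Frizzled genes with reads, Fzd7 took 40.2% to 49.1% in the 9 control libraries (median 43.5%) and 18.5% to 34.0% in the 9 HPRT-knockdown libraries (median 29.8%). The median share of Fzd3 was 22.3% in the control and 29.6% in the HPRT-knockdown line, that of Fzd1 9.93% and 15.1%, that of Fzd9 2.03% and 6.46%, and that of Fzd10 4.52% and 1.59%. The summed level itself ran from 2378 to 3587 scaled reads per kilobase in the control (median 2719) and from 1770 to 3276 in the HPRT-knockdown libraries (median 2178), and overlapped between the lines. Shares of 1 total are not independent of each other, and they were not tested.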
